A study of Mus musculus with 36 samples.

Results

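Thrombospondin 1 and 7 other genes for matrix or angiogenic factors were followed in tumour-associated macrophages (TAMs) and, beside them, in tumour CD8+ T cells. They were picked by name, 8 of the 24781 gene rows of the count table: Thbs1, Fn1, Spp1, Vegfa, Mmp12, Mmp14, Plau and Plaur. Thbs1 led the choice because of its difference between muMt–/– and WT TAMs in these same libraries. Differences of the 8 genes between TAM groups are therefore given as a description, without p-values, and nothing is read from how many of them a fit across all genes called. CD8+ T cell groups were tested. The cell types were tested against each other too, except Thbs1 in WT and muMt–/– tumours, since those TAM libraries are the ones that led to its choice. Plau was in that fit, but its calls were left out of the counts, since it had 0 to 4 molecules in each CD8+ T cell group.

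Thrombospondin 1 is a secreted glycoprotein of the matrix that binds CD47 and CD36, restrains the growth of vessels and can release TGFβ from its latent form. Fibronectin and osteopontin are matrix ligands of integrins, VEGF-A drives the sprouting of vessels, and matrix metalloproteinases and the urokinase system cut matrix proteins. Macrophages in wounds and tumours are a well-known source of such factors.

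The tumours were grown from MC38, a mouse colon adenocarcinoma line, injected into the skin, and cells were sorted on day 7. TAMs were gated as CD45+CD11b+F4/80high and T cells as CD45+TCRβ+CD8+, and each library held 100 cells, whose RNA molecules were barcoded so that molecules rather than amplified copies were counted. For each cell type there were 6 libraries from WT mice, 6 from muMt–/– mice, in which B cells do not mature, and 6 from muMt–/– mice carrying a slow-release GABA pellet, 36 in all. The labels list no treatment for the first 2 groups, whereas the methods of the study give them a placebo pellet. The muMt–/– mice were on a C57BL/6J background and WT mice in the study were C57BL/6J or C57BL/6N, with the substrain of the WT mice used here not given. Mice of both sexes aged 2 to 5 months were used across the experiments, with no age or sex given for a single mouse. Setting muMt–/– beside WT asks what goes with the lack of B cells, and setting the GABA group beside muMt–/– asks what goes with GABA given from outside. The labels call the 6 replicates independent library preparations, and by the methods each came from its own mouse, so p-values measure the spread between these mice and their libraries.

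TAM libraries held 100254 to 304100 molecules and CD8+ T cell libraries 22896 to 98015. Depth differed between groups: the median was 242756 molecules in WT TAMs, 149960 in muMt–/– TAMs and 192775 in TAMs of the GABA group. Among CD8+ T cells the lowest library was at 22896 molecules in WT, 51064 in muMt–/– and 65356 in the GABA group. Their medians were 42065.5, 67121.5 and 80283 molecules in the same order.

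The markers of each sorted population were present. The 22 macrophage markers took 1.21 to 2.60% of the molecules of a TAM library, with Ctss, the gene of cathepsin S, the most abundant, and 14 T cell markers took 0.224 to 0.751% of a CD8+ T cell library, led by Thy1. By group the macrophage share was 2.04 to 2.60% in WT TAMs, 1.71 to 2.22% in muMt–/– TAMs and 1.21 to 2.38% in TAMs of the GABA group. The lowest was replicate 1 of the GABA group. T cell markers came to 0 to 12 molecules in a TAM library. Macrophage markers in CD8+ T cell libraries were not at 0 and differed between the groups. They took 0.0186 to 0.261% of the molecules in WT (7 to 135 molecules), 0.129 to 0.860% in muMt–/– (68 to 546) and 0.0406 to 0.461% in the GABA group (28 to 452), with Ctss again the most abundant. Adgre1, Mrc1, Mertk and Pf4 were at 0 in all 6 WT libraries of CD8+ T cells, and Cd163 in the 6 of the GABA group. The highest share was in muMt–/– replicate 1, followed by replicates 1 and 3 of the GABA group.

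Markers of other cells were mostly scarce. The 10 B cell markers gave 0 to 5 molecules in a TAM library, mainly Cd79b, and 0 to 3 in a CD8+ T cell library. Platelet and megakaryocyte markers, mainly Gp1bb or Ppbp, gave 0 to 4 molecules in any library, and endothelial markers, mainly Pecam1, 0 to 7 apart from 1 WT TAM library with 64. Neutrophil markers gave 6 to 59 molecules in TAMs (Csf3r) and 0 to 19 in CD8+ T cells (S100a8 or Cxcr2), dendritic cell markers 1 to 16 in TAMs (Clec9a or Ccr7) and 5 to 27 in CD8+ T cells (Ccr7), and epithelial markers at most 31, mainly Cdh1. Fibroblast markers ranged from 7 to 1402 molecules in TAMs, with Col3a1 the most abundant and WT replicate 6 the highest. In CD8+ T cells they gave 27 to 169 molecules, mostly Thy1, which T cells express too.

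Nuclear RNA and monocyte markers differed between the TAM groups. Nuclear RNAs, mainly Malat1, took 0.317 to 0.389% of the molecules in WT TAMs, 0.469 to 1.05% in muMt–/– TAMs and 0.349 to 0.534% in the GABA group. CD8+ T cell libraries held 0.206 to 0.573% of them. Monocyte markers took 0.154 to 0.204% in WT TAMs, 0.159 to 0.348% in muMt–/– TAMs and 0.201 to 0.263% in the GABA group, with Ccr2 the most abundant, and 0.111 to 0.291% in CD8+ T cells, with Ly6c2 the most abundant. The part of depth, nuclear RNA, monocyte RNA and the share of macrophage markers in the differences between TAM groups given next was not tested, except that depth was added to the fit.

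Thbs1, the gene of thrombospondin 1 (chr2:118111876-118127133 on mouse build GRCm38.p6, which is mm10), stood apart most clearly in muMt–/– TAMs. Its normalized number of molecules, meaning molecules over the library's size factor, was 23.1 at the lowest, 37.2 at the median and 53.7 at the highest of the 6 WT libraries, with a mean of 38.2 ± 12.5 (SD, n = 6). In muMt–/– TAMs it was 72.1, 102 and 273, with a mean of 132 ± 75.0 (SD, n = 6), and in the GABA group 25.4, 50.4 and 101, with a mean of 54.3 ± 29.3 (SD, n = 6). All 6 muMt–/– libraries lay above all 6 WT libraries, and replicate 4 lay far above the rest. That library was also the highest in nuclear RNA, at 1.05% of its molecules against 0.469 to 0.606% in the other 5 muMt–/– libraries, and the part of this in its Thbs1 value was not tested. The GABA group reached into both ranges: 5 of its 6 libraries were below every muMt–/– library and 3 were above every WT library. Its library within the muMt–/– range, at 101, was replicate 1. That library was also the lowest TAM library in macrophage markers, at 1.21% of its molecules, with the next of the group at 1.66%. The part of this in its Thbs1 value was not tested. The log2 fold change was 1.72 (SE 0.275) for muMt–/– minus WT, -1.27 (SE 0.273) for GABA minus muMt–/– and 0.46 (SE 0.284) for GABA minus WT. In sorted pools of cells, fewer expressing cells and less RNA in each of them cannot be told apart.

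Among the matrix ligands, Fn1 (chr1:71585473-71653280) encodes fibronectin, which joins collagen and integrins. Its normalized number was 185, 201 and 251 at the lowest, median and highest of the WT TAM libraries, 289, 343 and 399 in muMt–/– TAMs and 188, 244 and 316 in the GABA group. All 6 muMt–/– libraries were again above all 6 WT libraries, whereas 4 of the 6 GABA libraries were below every muMt–/– library and 2 above every WT library. The share of all genes whose muMt–/– and WT TAM libraries do not overlap is not given here, so nothing is read from the separation of Thbs1 and Fn1. For Fn1 the log2 fold change was 0.69 (SE 0.142) for muMt–/– minus WT, -0.40 (SE 0.142) for GABA minus muMt–/– and 0.29 (SE 0.142) for GABA minus WT.

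Spp1 (chr5:104435111-104441053) encodes osteopontin, a secreted ligand of integrins and CD44. Its median was lower in muMt–/– than in WT TAMs, with 42.7, 66.4 and 102 normalized molecules in WT TAMs, 33.6, 52.5 and 82.9 in muMt–/– TAMs and 36.6, 43.9 and 54.8 in the GABA group. The groups overlapped widely, and 3 of the 6 GABA libraries were below every WT library. Its log2 fold change was -0.37 (SE 0.208) for muMt–/– minus WT, -0.23 (SE 0.217) for GABA minus muMt–/– and -0.60 (SE 0.205) for GABA minus WT.

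Vegfa (chr17:46016993-46032377), the gene of the main growth factor of vessels, had 20.3, 36.4 and 46.5 normalized molecules in WT TAMs, 40.4, 52.2 and 90.6 in muMt–/– TAMs and 35.8, 38.8 and 51.5 in the GABA group. Here 4 of the 6 muMt–/– libraries were above every WT library, and replicate 4, the highest for Thbs1, was the highest for Vegfa as well. In the same order of comparisons its log2 fold change was 0.68 (SE 0.203), -0.41 (SE 0.203) and 0.28 (SE 0.203).

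The metalloproteinases were more spread. Mmp12 (chr9:7344397-7360461), macrophage elastase, had 6.46, 17.4 and 34.9 normalized molecules in WT TAMs, 10.9, 30.2 and 58.7 in muMt–/– TAMs and 14.6, 21.7 and 48.8 in the GABA group, with 2 of 6 muMt–/– libraries above every WT library. Its log2 fold change was 0.90 (SE 0.329), -0.45 (SE 0.325) and 0.46 (SE 0.333). Mmp14 (chr14:54431598-54442456), a membrane-bound collagenase that activates pro-MMP-2, had 61.8, 74.6 and 93.2 in WT TAMs, 68.3, 90.1 and 126 in muMt–/– TAMs and 61.1, 72.7 and 96.6 in the GABA group. For Mmp14 3 of 6 muMt–/– libraries were above every WT library, and the log2 fold change was 0.31 (SE 0.163), -0.30 (SE 0.164) and 0.01 (SE 0.161).

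The urokinase pair did not follow Thbs1. Plau (chr14:20836662-20843388), which encodes the protease urokinase, had 20.3, 23.4 and 39.3 normalized molecules in WT TAMs, 11.1, 14.8 and 58.4 in muMt–/– TAMs and 9.14, 15.9 and 26.6 in the GABA group. In muMt–/– TAMs 4 of 6 libraries were below every WT library, while replicate 1 was above all of them. Its log2 fold change was -0.41 (SE 0.276), -0.22 (SE 0.299) and -0.63 (SE 0.269), and without that replicate it was -0.85 for muMt–/– minus WT and 0.21 for GABA minus muMt–/–. Plaur (chr7:24460937-24475970), which encodes the urokinase receptor, had 9.47, 17.2 and 32.6 in WT TAMs, 16.2, 20.5 and 24.0 in muMt–/– TAMs and 11.9, 20.9 and 29.6 in the GABA group. These ranges lay within one another, and the log2 fold change of Plaur was 0.09 (SE 0.239), 0.11 (SE 0.240) and 0.20 (SE 0.226). For Plaur it was -0.04 for muMt–/– minus WT without WT replicate 3 and -0.02 for GABA minus muMt–/– without GABA replicate 2.

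**Figure D1:**
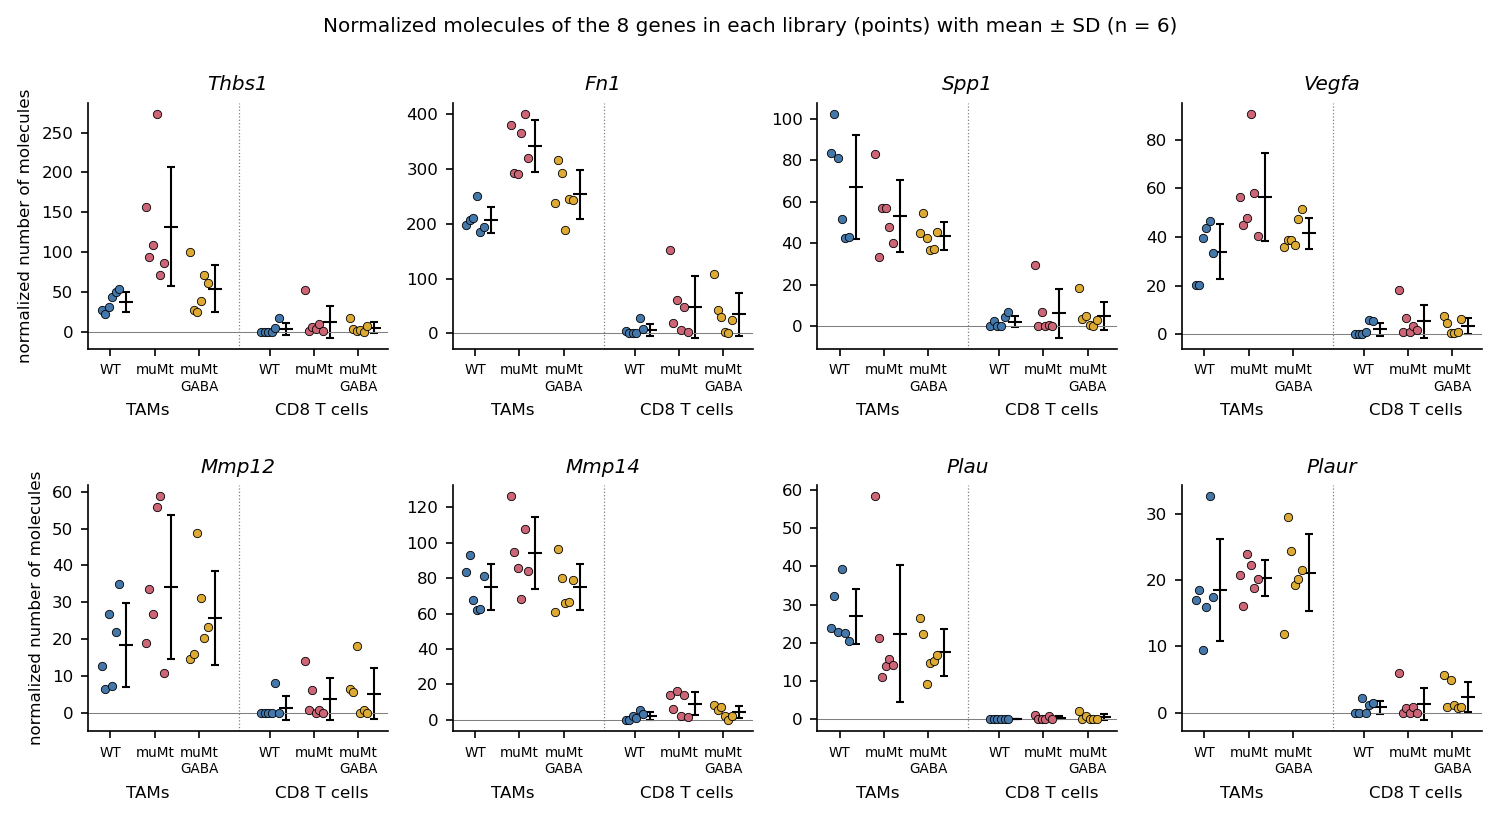
Normalized number of molecules of the 8 genes in TAMs (left of each panel) and CD8+ T cells (right), with 1 point per library and a bar for the mean ± SD of the 6 libraries of a group. Size factors were taken within each cell type, so TAMs and CD8+ T cells are on different scales and their heights cannot be compared. All 6 muMt–/– TAM libraries lie above all 6 WT TAM libraries for Thbs1 and Fn1, and these groups overlap for the other 6 genes in TAMs. Thbs1 was chosen on this comparison and the share of all genes without overlap is not given, so nothing is read from the separation.

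Between muMt–/– and WT TAMs, 6 of the 8 genes were higher and 2 lower, and 2 of 8, Thbs1 and Fn1, were among the 194 of 9469 genes called (2.05%, edgeR quasi-likelihood test, Benjamini-Hochberg threshold of 0.05). Since Thbs1 was chosen on this comparison, nothing is read from that count. Without WT replicate 5 Vegfa was called as well. The 194 genes became 87 without WT replicate 1, 125 without WT replicate 6 and 67 without muMt–/– replicate 4. With the log2 number of molecules per library in the fit, a step added after the data were seen, 11 genes and 0 of the 8 were called, with a log2 fold change of 1.29 for Thbs1 and 0.77 for Fn1. Depth went with group, at 206394 to 304100 molecules in WT TAMs and 100254 to 253608 in muMt–/– TAMs. This fit therefore cannot tell depth and group apart well, and the lost calls do not show that depth made the differences. At an unadjusted p under 0.05 the fit without depth counted 1408 genes and 4 of the 8, and DESeq2 called 282 genes and 3 of the 8, Vegfa being the third. Thbs1, Fn1, Vegfa, Mmp12 and Mmp14 are also on a list of TNF targets that the study chose on these TAM libraries, so that being listed there is not independent evidence of a direction.

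Between the GABA group and muMt–/– TAMs, 7 of the 8 genes were lower and Plaur was higher. By edgeR 0 of 8 were called, against 2 of 9469 genes (0.0211%), and 2 of 8 had an unadjusted p under 0.05, against 801 genes (8.46%). DESeq2 called 62 genes, among them Thbs1 and Fn1. Thbs1 was called by edgeR without muMt–/– replicate 5 (12 genes called) or without GABA replicate 1 (36 genes), and 5 genes without Thbs1 were called when replicate 2 of either group was left out. Between the GABA group and WT TAMs, 6 of the 8 genes were higher and Spp1 and Plau lower, and by edgeR 0 of 8 were called, against 7 of 9469 genes (0.0739%). Here 3 of 8 had an unadjusted p under 0.05, against 665 genes (7.02%), and DESeq2 called 13 genes and 0 of the 8. Leaving out WT replicate 1, 2, 3, 4 or 6 or GABA replicate 1, 2 or 3 took the 7 genes to 2 or 3. These comparisons share the muMt–/– or the WT libraries with the one before them, so that the same values, among them those that led to the choice, enter more than 1 of them.

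Over the 18 TAM libraries, with the mean of each group taken out, the 8 genes did not vary as a block. The 28 pairs had a Pearson correlation of -0.56 (Thbs1 with Mmp14) to 0.57 (Thbs1 with Vegfa), with a median of 0.05, between values that share a library, its depth and its composition. Among 5307 genes the 5 most like Thbs1 by this measure were Wipf2, of the WASP-interacting protein family (r = 0.78), Vps4b, an ATPase that recycles the ESCRT machinery (0.78), Rab7b, a small GTPase of late endosomes (0.77), Stk17b, a serine/threonine kinase (0.76), and Clk1, a kinase of splicing factors (0.76).

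CD8+ T cell libraries mostly held few molecules of the 8 genes, apart from Fn1, which reached 151 in muMt–/– replicate 1 and 170 in GABA replicate 1. Thbs1 gave 28 molecules over the 6 WT libraries, 81 over the 6 muMt–/– libraries and 48 over the 6 GABA libraries. Its normalized number was 0, 0 and 18.03 at the lowest, median and highest of the WT libraries, 1.49, 5.11 and 52.6 in muMt–/– and 0, 3.07 and 17.8 in the GABA group. In WT the molecules came from replicates 5 and 6, and in muMt–/– replicate 1 was far above the others. The log2 fold change of Thbs1 for muMt–/– minus WT was 1.18 (SE 0.750), which did not pass (adjusted p = 0.897, edgeR quasi-likelihood test with Benjamini-Hochberg adjustment). It was -0.07 without muMt–/– replicate 1 and 3.28 without WT replicate 6, so single libraries set it.

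Fn1 and Mmp14 were the furthest apart between muMt–/– and WT CD8+ T cells. Fn1 had 0, 2.35 and 27.4 normalized molecules at the lowest, median and highest in WT, 2.498, 33.8 and 153 in muMt–/– and 0.781, 27.2 and 108 in the GABA group. For Fn1 3 of 6 muMt–/– libraries and 3 of 6 GABA libraries were above every WT library, and the lowest of each group lay within the WT range. The log2 fold change of Fn1 was 2.61 (SE 0.757, adjusted p = 0.336, edgeR) for muMt–/– minus WT and 2.20 (SE 0.760, adjusted p = 0.458, edgeR) for GABA minus WT. Without WT replicate 5 these were 3.65 and 3.26, without muMt–/– replicate 1 the first was 1.90 and without GABA replicate 1 the second was 1.32. Mmp14 had 0, 1.62 and 5.72 in WT, 1.67, 9.92 and 16.0 in muMt–/– and 0, 3.93 and 8.26 in the GABA group, with 4 of 6 muMt–/– libraries above every WT library. Its log2 fold change was 1.98 (SE 0.608, adjusted p = 0.360, edgeR) for muMt–/– minus WT and -1.01 (SE 0.479, adjusted p = 0.999, edgeR) for GABA minus muMt–/–.

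The other genes overlapped between the groups of CD8+ T cells as well. Spp1 ran from 0 to 6.76 normalized molecules in WT, 0 to 29.3 in muMt–/– and 0 to 18.4 in the GABA group. Vegfa ran from 0 to 5.72, 0.743 to 18.2 and 0.620 to 7.63, and Mmp12 from 0 to 8.003, 0 to 14.2 and 0 to 17.97. Plaur ran from 0 to 2.21, 0 to 6.07 and 0.781 to 5.72. Plau was at 0, 2 and 4 molecules over the libraries of the 3 groups and did not reach the mean of 1 normalized molecule needed for testing. The log2 fold change for muMt–/– minus WT was 1.01 (SE 0.901) for Spp1 and 0.46 (SE 0.979) for Plaur. Without muMt–/– replicate 1 it was -0.67 for Spp1 and below 0 for Plaur, with 2 Plaur molecules left. Without that library GABA minus muMt–/– was 0.22 for Thbs1, 0.29 for Fn1, 1.63 for Spp1 and 0.25 for Vegfa, all of which were below 0 with it, and without GABA replicate 3 that of Mmp12 was -0.45 in place of 0.64. Without GABA replicate 1 the log2 fold change for GABA minus WT was -0.79 for Thbs1, -0.15 for Spp1 and -0.10 for Vegfa, in place of 0.16, 0.96 and 0.42. With depth in the fit Thbs1, Spp1, Vegfa and Mmp14 turned negative in this comparison, with the values given in the last section.

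By edgeR, 0 of the 7 genes tested and 0 of 6663 genes in all (0.0%) passed between muMt–/– and WT CD8+ T cells, with 2 of 7, Fn1 and Mmp14, at an unadjusted p under 0.05, against 411 genes (6.17%). Between the GABA group and muMt–/– it was 0 of 7 against 0 genes (0.0%), with 1 of 7, Mmp14, against 247 genes (3.71%) by unadjusted p. Between the GABA group and WT it was 0 of 7 against 0 genes (0.0%), with 1 of 7, Fn1, against 459 genes (6.89%) by unadjusted p. DESeq2 called 0, 0 and 1 gene, none of them among the 8. Without a filter on low values, edgeR called 72 genes between muMt–/– and WT, among them Fn1 and Mmp14, and 64 between GABA and WT, among them Fn1. Without WT replicate 5 it called 13 genes between muMt–/– and WT and 0 of the 7. A single gene was called between the GABA group and muMt–/– without muMt–/– replicate 6 or GABA replicate 2, and between the GABA group and WT without WT replicate 6 or GABA replicate 1.

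The highest values lay mostly in libraries rich in macrophage markers. The CD8+ T cell library with the highest share of them, muMt–/– replicate 1, was the highest of all 18 for 5 of the 8 genes (Thbs1, Fn1, Spp1, Vegfa and Plaur), and the next by that share, GABA replicate 1, was the highest for Plau, while GABA replicate 3 was the highest for Mmp12. Mmp14 was highest in muMt–/– replicate 3, the eighth by macrophage markers. WT replicate 6, with 24 Thbs1 molecules, held 60 molecules of macrophage markers and 19 of neutrophil markers. Without the 3 libraries richest in macrophage markers, an alternative added after the data were seen, the log2 fold change for muMt–/– minus WT was -0.15 for Thbs1, -0.73 for Spp1, 1.82 for Fn1 and 1.80 for Mmp14, and 0 genes passed in edgeR. Since those 3 libraries were also the highest for 7 of the 8 genes, leaving them out had to lower the values, and the part of macrophage RNA in them was not tested.

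**Figure D2:**
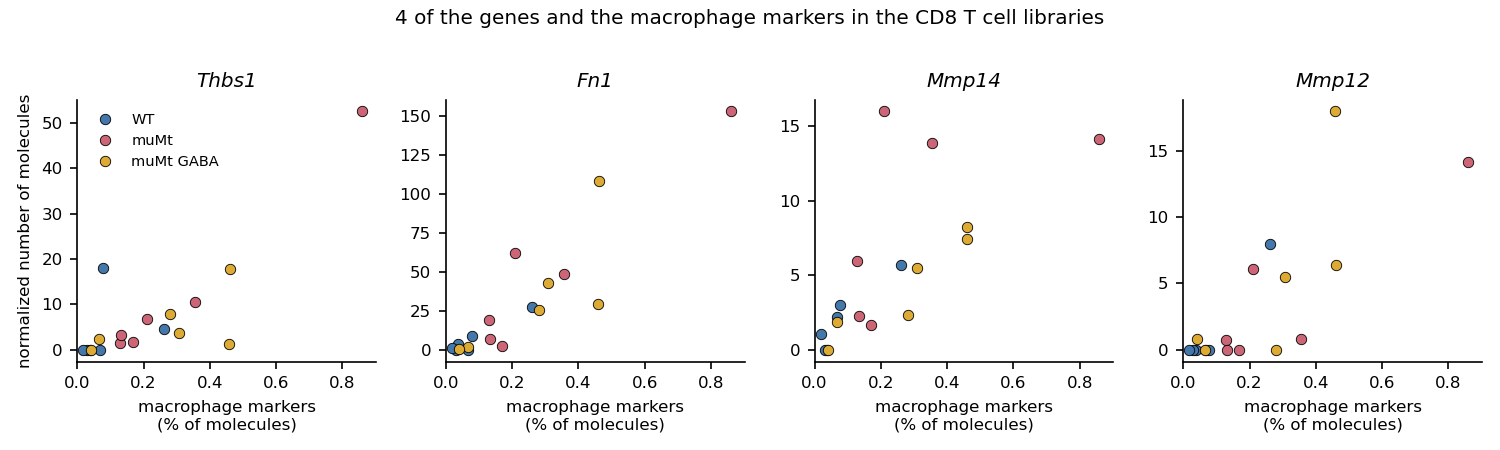
Normalized number of molecules of Thbs1, Fn1, Mmp14 and Mmp12 in the 18 CD8+ T cell libraries (vertical axis) against the share of molecules from 22 macrophage markers (horizontal axis, percent), with 1 point per library coloured by group. The library with the highest share, 0.860%, is also the highest for Thbs1 (52.6) and Fn1 (153), and the WT library second for Thbs1 (18.03) is twelfth of 18 by that share.

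Set beside TAMs, CD8+ T cells had less of the 8 genes on average in all 3 groups. Size factors for this comparison were taken over all 36 libraries. In WT tumours the mean of Thbs1 in CD8+ T cells was 28.2% of that in TAMs, that of Fn1 9.51% and that of Mmp14 7.62%. In muMt–/– tumours these shares were 26.4, 39.1 and 26.3%, and in the GABA group 29.2, 39.0 and 16.1%. The largest of the 24 shares was that of Mmp12 in the GABA group, 56.2%. Single CD8+ T cell libraries moved them: in WT Thbs1 was at 6.79% without replicate 6, Fn1 at 3.86% and Mmp14 at 4.81% without replicate 5. Without replicate 1 Thbs1 was at 10.1% and Fn1 at 22.6% in muMt–/– and at 16.4 and 22.6% in the GABA group, where Mmp12 was at 27.9% without replicate 3. The median share over the 22 macrophage markers was 2.03% in WT, 10.5% in muMt–/– and 13.4% in the GABA group. Single markers ranged from 0 to 256% in WT, 1.25 to 543% in muMt–/– and 0 to 25.1% in the GABA group. The 256 and 543% were Cd163, with 1 and 2 molecules in those CD8+ T cells, and the next was Cd14 at 7.91 and 29.6%. The part of macrophage RNA in the shares of the 8 genes was not tested.

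Plau passed the filter on low values through TAMs alone, so that it could only be called as higher there, and it was left out of the counts that follow, as was Thbs1 in WT and muMt–/– tumours. By edgeR 5 of 6 genes were higher in TAMs than in CD8+ T cells of WT tumours, where 1928 of 8477 genes passed in either direction (22.7%) and 1420 were higher in TAMs (16.8%). In muMt–/– tumours it was 6 of 6, against 1810 genes in either direction (21.4%) and 1156 higher in TAMs (13.6%). In the GABA group, with Thbs1, it was 6 of 7, against 1869 genes (22.0%) and 1197 higher in TAMs (14.1%). DESeq2 called 5 of 6, 3 of 6 and 3 of 7 in these comparisons, against 1666, 1743 and 1773 genes in all. In WT edgeR called Mmp12 as well with no filter or in a fit of the 12 libraries.

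Mmp14 and Plau were separate in every group, with all 6 TAM libraries above all 6 CD8+ T cell libraries. For Plau this was the only direction open, since it passed the filter through TAMs alone. The share of all genes that were separate in this way is not given here, so nothing is read from the separation. Mmp14 had a mean of 43.7 ± 7.22 in TAMs and 3.33 ± 3.61 in CD8+ T cells of WT tumours (SD, n = 6), a log2 fold change of 3.57 (SE 0.444, adjusted p = 4.25e-09, edgeR). It was 1.85 (SE 0.310, adjusted p = 4.97e-06, edgeR) in muMt–/– and 2.54 (SE 0.340, adjusted p = 3.58e-08, edgeR) in the GABA group. Plau had 210 molecules in WT TAMs and 0 in WT CD8+ T cells, at least 14.1-fold lower against a floor of 3 molecules over the group. In muMt–/– there were 99 Plau molecules in TAMs and 2 in CD8+ T cells, a depth-adjusted ratio of 24.3 (95% counting interval 6.55 to 203). That interval pools the molecules of 6 libraries and leaves out the spread between mice, and 31 of the 99 molecules were in TAM replicate 1. In the GABA group there were 111 Plau molecules in TAMs and 4 in CD8+ T cells, 3 of them in replicate 1.

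Vegfa and Plaur were higher in TAMs of every group as well. The log2 fold change of Vegfa was 2.23 (SE 0.521, adjusted p = 0.000737, edgeR) in WT, 1.94 (SE 0.401, adjusted p = 0.000162, edgeR) in muMt–/– and 2.06 (SE 0.421, adjusted p = 0.000143, edgeR) in the GABA group, with 6, 3 and 6 of 6 TAM libraries above every CD8+ T cell library. That of Plaur was 2.96 (SE 0.627, adjusted p = 0.000197, edgeR), 2.56 (SE 0.520, adjusted p = 0.000125, edgeR) and 1.48 (SE 0.398, adjusted p = 0.00365, edgeR), with 6, 5 and 5 of 6 above. Without CD8 replicate 6 the difference of Vegfa in WT was 2.87, and without CD8 replicate 1 that of Vegfa in muMt–/– was 2.71, while 2 of 8 Plaur molecules were left in those CD8+ T cells. DESeq2 called Mmp14, Vegfa and Plaur in all 3 groups.

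For Fn1, Spp1, Thbs1 and Mmp12 single libraries decided whether at least 1 group passed. Fn1 was higher in WT TAMs by a log2 fold change of 3.27 (SE 0.617, adjusted p = 3.15e-05, edgeR), and by 1.33 (SE 0.473, adjusted p = 0.0352, edgeR) in muMt–/– and 1.30 (SE 0.475, adjusted p = 0.0402, edgeR) in the GABA group. Spp1 was higher by 3.08 (SE 0.623, adjusted p = 0.000101, edgeR), 1.68 (SE 0.514, adjusted p = 0.0126, edgeR) and 1.46 (SE 0.494, adjusted p = 0.0253, edgeR). In WT tumours all 6 TAM libraries were above every CD8+ T cell library for both. In muMt–/– tumours CD8 replicate 1 was above all 6 TAM libraries for Fn1 and above 5 of 6 for Spp1. Without it the difference was 2.01 for Fn1 and 3.36 for Spp1, without CD8 replicate 1 of the GABA group 2.13 and 2.55 there, and in WT Fn1 was at 4.31 without CD8 replicate 5 and Spp1 at 4.06 without CD8 replicate 6.

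Thbs1 differed by 1.38 (SE 0.643) in WT and by 1.92 (SE 0.492) in muMt–/–, values that the choice of the gene on these TAM libraries bears on. In the GABA group, whose libraries were not part of the difference that led to the choice, it was higher in TAMs by 1.66 (SE 0.555, adjusted p = 0.0232, edgeR). DESeq2 and a robust fit did not call Thbs1 there, and the 8 genes were chosen with earlier results of these data known. Mmp12 passed in muMt–/– with 1.82 (SE 0.609, adjusted p = 0.0238, edgeR), and not in WT with 2.19 (SE 0.882, adjusted p = 0.0662, edgeR) or in the GABA group with 0.69 (SE 0.541, adjusted p = 0.417, edgeR). Without CD8 replicate 6 of WT Thbs1 was at 3.59, and without CD8 replicate 1 it was at 3.16 in muMt–/– and 2.58 in the GABA group. In muMt–/– Mmp12 was at 2.79 without CD8 replicate 1, and in WT all 7 Mmp12 molecules of CD8+ T cells were in replicate 5. Without CD8 replicate 3 of the GABA group Mmp12 reached 1.77 (adjusted p = 0.0391, edgeR).

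Other single libraries and other settings ended calls. With library totals alone, filterByExpr, DESeq2 or a robust fit Fn1 did not pass in muMt–/– tumours or in the GABA group. Mmp12 did not pass in muMt–/– tumours with library totals alone, DESeq2 or a robust fit. Spp1 did not pass in muMt–/– tumours or in the GABA group with DESeq2 or a robust fit. In muMt–/– tumours Fn1 did not pass without CD8 replicate 2, 4, 5 or 6 or TAM replicate 1, 4 or 5 (adjusted p 0.0523 to 0.105, edgeR), and Mmp12 did not without CD8 replicate 2, 4, 5 or 6 or TAM replicate 4 or 5 (0.0623 to 0.0956). In the GABA group Fn1 did not pass without CD8 replicate 2, 3, 4, 5 or 6 or TAM replicate 2, 3, 5 or 6 (0.0514 to 0.124), Spp1 without CD8 replicate 2, 4, 5 or 6 or TAM replicate 2 (0.0524 to 0.0918) and Thbs1 without CD8 replicate 3, 4 or 5 or TAM replicate 1 (0.0657 to 0.0819). Without CD8 replicate 4 or 5 of the GABA group 3 of 7 genes passed there, against 1522 and 1575 genes in all. Without the 3 CD8+ T cell libraries richest in macrophage markers, 6 of 6, 6 of 6 and 7 of 7 genes passed, counted as before. Over all genes 1943, 1976 and 1903 passed in either direction in these comparisons. The libraries left out were the highest CD8+ T cell libraries for all of the 8 genes but Mmp14. Leaving them out therefore had to lower the CD8+ T cell values in muMt–/– and the GABA group. None of them was a WT library, so the WT count changed only through the shared fit. Nothing is read from these counts.

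The partners of the 8 genes were read from 6 lists of 141 genes in all, of which 97 were tested in TAMs. Between muMt–/– and WT TAMs 5 of 97 rose (5.15%, against 2.05% of all genes tested) and 0 fell in edgeR. The lists were chosen with earlier results of these data known. This share and the adjusted p-values of list genes below therefore describe these libraries only, and nothing is read from the difference between the shares. Sdc4, which encodes syndecan 4, a surface proteoglycan that binds fibronectin and thrombospondin 1, had 23.2, 27.3 and 41.5 normalized molecules in WT TAMs and 45.1, 46.6 and 78.1 in muMt–/– TAMs, higher in 6 of 6 libraries than in any WT library. It rose by a log2 fold change of 0.82 (SE 0.187, adjusted p = 0.0122, edgeR). Mmp19, another metalloproteinase, had 6.54, 7.33 and 17.6 in WT TAMs and 9.42, 16.6 and 43.2 in muMt–/– TAMs. It rose by 1.19 (SE 0.289, adjusted p = 0.0206, edgeR), with 2 of 6 muMt–/– libraries above every WT library.

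The other 3 were Ptgs2, Hif1a and Itgam. Ptgs2, which encodes the cyclooxygenase induced in inflammation, had 29.8, 52.6 and 78.5 normalized molecules in WT TAMs and 71.3, 88.5 and 149 in muMt–/– TAMs and rose by 0.90 (SE 0.221, adjusted p = 0.0218, edgeR), with 5 of 6 libraries above every WT library. Hif1a, which encodes the oxygen-regulated transcription factor upstream of Vegfa, had 34.1, 46.8 and 67.1 and then 53.3, 79.7 and 112, and rose by 0.69 (SE 0.183, adjusted p = 0.0343, edgeR), with 4 of 6 above. Itgam, which encodes the CD11b chain on which TAMs were gated, had 73.3, 92.9 and 145 and then 133, 153 and 197, and rose by 0.66 (SE 0.168, adjusted p = 0.0277, edgeR), with 4 of 6 above.

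These 5 calls were lost in the fit with depth, which called 0 list genes, and without muMt–/– replicate 4 (0 list genes). The log2 fold changes of the 5 genes with depth in the fit are not given here, so the lost calls do not show whether the differences shrank. 1 to 3 list genes were called without WT replicate 1, 3, 5 or 6 or muMt–/– replicate 2, and Sdc4 was called without any 1 library but muMt–/– replicate 4 (adjusted p = 0.0683, edgeR quasi-likelihood test with Benjamini-Hochberg adjustment). Ptgs2 was not called without WT replicate 1 or 3 or muMt–/– replicate 4 (adjusted p 0.0632 to 0.0984, edgeR), nor Mmp19 without WT replicate 1, 3 or 6 or muMt–/– replicate 3 or 4 (0.0505 to 0.130). Itgam was not called without WT replicate 1, 3, 5 or 6 or muMt–/– replicate 1, 2 or 4 (0.0513 to 0.0909, edgeR), nor Hif1a without WT replicate 1, 2, 4, 5 or 6 or muMt–/– replicate 2, 4 or 6 (0.0551 to 0.108). With any 1 library left out the log2 fold change was at least 0.69 for Sdc4, 0.75 for Ptgs2, 0.91 for Mmp19, 0.58 for Itgam and 0.57 for Hif1a. DESeq2 called these 5 as well as Srgn and Tgm2, while a robust fit called Tgm2 and all of the 5 but Ptgs2. In the list of thrombospondin family, partners and receptors the median log2 fold change was -0.16 over 10 genes, against -0.05 over all genes, with Calr at -0.27 (SE 0.186) and Cd47 at -0.09 (SE 0.164). Among receptors for fibronectin and osteopontin it was 0.10 over 9 genes, with Cd44 at 0.29 (SE 0.142) and Itgb1 at 0.07 (SE 0.166).

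The remaining lists had medians near that of all genes, apart from other matrix proteins. Matrix proteases and their inhibitors had a median of 0.02 over 19 genes, with the cathepsins Ctss at -0.17 (SE 0.194) and Ctsb at -0.16 (SE 0.159), the plasminogen activator system -0.02 over 10 genes, with S100a10 at 0.25 (SE 0.153), and angiogenic factors and receptors 0.02 over 16 genes. For other matrix proteins the median was -0.32 over 37 genes, 8 higher and 29 lower, with 0 called in edgeR, 7 at an unadjusted p under 0.05 and Srgn and Tgm2 called in DESeq2. The 2 with the highest mean in TAMs were on the other side, Tgfbi, a TGFβ-induced matrix protein, at 0.22 (SE 0.140) and Tgm2, which crosslinks matrix proteins, at 0.56 (SE 0.170). Col1a1, Col1a2, Col3a1, Dcn and Postn of this list are also fibroblast markers. Molecules of the fibroblast markers ranged from 29 to 1402 in WT TAM libraries (median 87.0) and from 7 to 435 in muMt–/– TAM libraries (median 102.5). The 1402 were in WT replicate 6. The part of these markers in the list median of -0.32 was not tested.

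**Figure D3:**
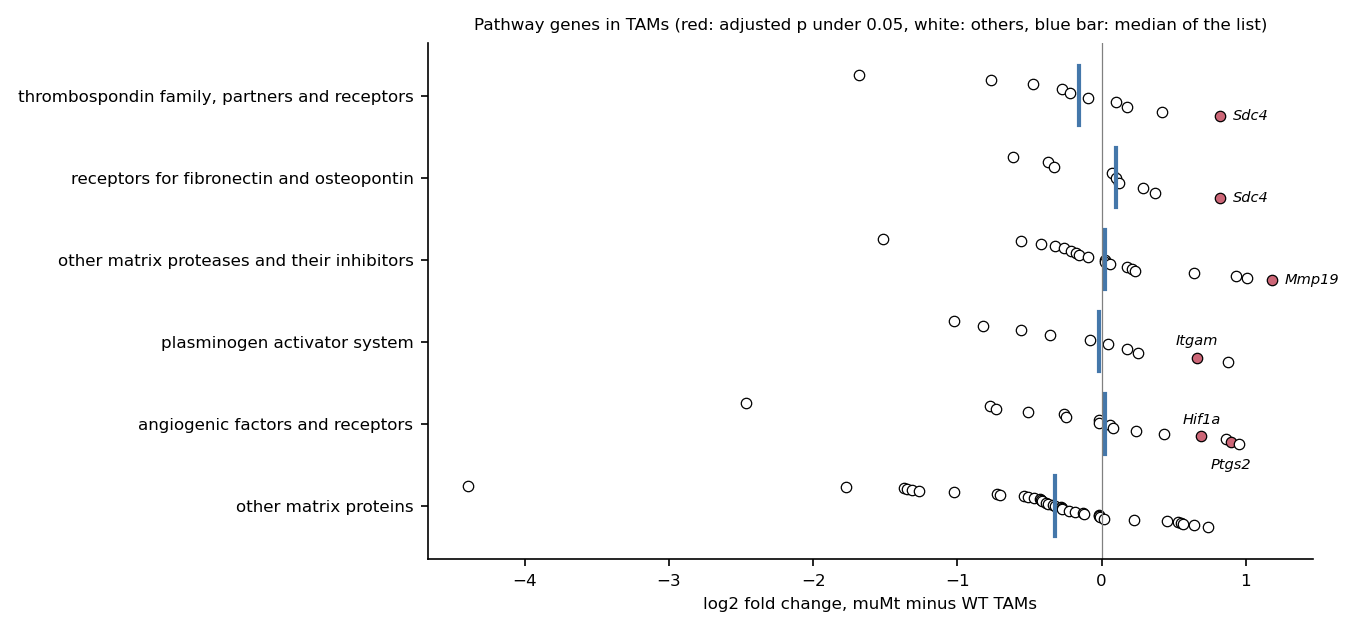
Log2 fold change between muMt–/– and WT TAMs (horizontal axis) of the tested genes of 6 lists of partners (vertical axis), with 1 circle per gene, filled where the adjusted p was under 0.05, and a bar at the median of each list. The 5 filled genes are Sdc4 (on 2 lists, 0.82), Mmp19 (1.19), Itgam (0.66), Hif1a (0.69) and Ptgs2 (0.90), and the median of other matrix proteins is at -0.32.

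In the other comparisons no list gene was called. Between the GABA group and muMt–/– TAMs it was 0 of 97 in edgeR and 0 in DESeq2, with 11 of 97 at an unadjusted p under 0.05 against 8.46% of all genes, and between the GABA group and WT TAMs 0 and 0, with 6 of 97 against 7.02%. For GABA minus muMt–/– TAMs the log2 fold change was -0.33 (SE 0.184) for Sdc4, -0.62 (SE 0.281) for Mmp19, -0.55 (SE 0.221) for Ptgs2, -0.42 (SE 0.184) for Hif1a and -0.41 (SE 0.169) for Itgam. For angiogenic factors and receptors the median was -0.28 over 16 genes, 5 higher and 11 lower, and for other matrix proteins it was 0.29, against 0.06 over all genes. Fibroblast markers gave 78 to 703 molecules in TAMs of the GABA group (median 121.0) and 7 to 435 in muMt–/– TAMs (median 102.5). Their part in the 0.29 was not tested. Without GABA replicate 1 edgeR called 1 list gene, Adam17, in this comparison.

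In CD8+ T cells 62 list genes were tested. Between muMt–/– and WT 0 were called by edgeR or DESeq2 and 17 of 62 had an unadjusted p under 0.05, against 6.17% of all genes. Between the GABA group and muMt–/– it was 0 and 7 of 62, against 3.71%, and between the GABA group and WT 0 and 11 of 62, against 6.89%. All 10 tested proteases and inhibitors were higher in muMt–/– than in WT CD8+ T cells, with a median log2 fold change of 0.88 against 0.15 over all genes, and so were all 10 tested genes of the plasminogen activator system, with a median of 1.05. The same 10 and 10 were higher in the GABA group than in WT, with medians of 0.73 and 0.72 against 0.21 over all genes, in a comparison with the same WT libraries. The filter on low values lets in genes that 1 group raises. Mmp19, for example, had means of 0.750 normalized molecules in WT, 3.44 in muMt–/– and 1.06 in the GABA group. Nothing is therefore read from all tested genes of these lists being higher. Ctss, itself the most abundant macrophage marker, was at 1.36 (SE 0.410), and Itgam, another, at 2.35 (SE 0.809). Macrophage markers were higher in the same libraries, and their part in these medians was not tested. Without WT replicate 5, 2 list genes, Ctss and Tgm2, were called between muMt–/– and WT.

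The RefSeq promoter windows, 250 bases before to 50 after a start, were searched on both strands for 6 motifs. The windows used here covered 5 of the 8 genes (Spp1, Vegfa, Mmp12, Mmp14 and Plaur), and not Thbs1, Fn1 and Plau. Among 32851 windows the AP-1 motif TGANTCA was in 7.81%, the core of the hypoxia response element (ACGTG or GCGTG) in 43.8%, the GC box GGGCGG in 35.7%, the TATA box TATAAA in 13.6%, the NF-kB motif in 4.505% and the cAMP response element TGACGTCA in 1.79%. Of the 8 windows of the 5 genes 2, 2, 4, 2, 1 and 0 had a match. The 3 windows of 300 bases with a match to AP-1 or NF-kB are shown 5′ to 3′ on the strand of the gene (build GRCm38.p6, sequences from RefSeq), with that match in capitals: NF-kB from base 133 for Vegfa (chr17:46032328-46032627, minus strand), and AP-1 from base 207 for Mmp12 (second start, chr9:7347124-7347423, plus strand) and from base 182 for Plaur (chr7:24462233-24462532, plus strand). None of the 3 matches overlapped another motif of the search, and a match describes letters only.
Vegfa: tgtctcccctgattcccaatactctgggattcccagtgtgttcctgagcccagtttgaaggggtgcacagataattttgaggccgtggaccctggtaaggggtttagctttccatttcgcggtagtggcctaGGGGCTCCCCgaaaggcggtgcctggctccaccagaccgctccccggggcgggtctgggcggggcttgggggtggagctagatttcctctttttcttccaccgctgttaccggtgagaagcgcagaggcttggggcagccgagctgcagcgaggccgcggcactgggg
Mmp12: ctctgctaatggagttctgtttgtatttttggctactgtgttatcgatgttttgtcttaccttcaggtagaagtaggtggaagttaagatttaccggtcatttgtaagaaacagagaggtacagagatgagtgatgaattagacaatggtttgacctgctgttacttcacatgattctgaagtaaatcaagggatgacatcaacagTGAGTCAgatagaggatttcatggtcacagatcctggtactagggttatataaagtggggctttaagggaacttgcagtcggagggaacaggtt
Plaur: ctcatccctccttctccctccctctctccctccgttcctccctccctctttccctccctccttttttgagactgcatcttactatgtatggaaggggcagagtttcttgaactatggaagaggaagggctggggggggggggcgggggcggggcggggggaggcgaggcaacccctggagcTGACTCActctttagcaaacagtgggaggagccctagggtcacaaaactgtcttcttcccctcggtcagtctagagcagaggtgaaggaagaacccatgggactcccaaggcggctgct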

How the data were processed

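The deposited counts of distinct molecules were used as given by the authors, who aligned reads with STAR to mm10 and refFlat genes. Genes with a mean above 1 normalized molecule were tested with edgeR 4.0.16 (TMM factors, 1 coefficient per group, quasi-likelihood F-test, Benjamini-Hochberg adjustment at 0.05) in fits of 18 TAM, 18 CD8+ T cell or all 36 libraries. Normalized values used DESeq2 1.42.0 size factors. R 4.3.3, Python 3.11.15, numpy 2.4.6, pandas 2.3.3 and matplotlib 3.10.9 were used. Named genes were the 8 members, list genes called between groups (at most the 3 largest by log2 fold change per list), the 2 of each list highest in TAMs, the 5 genes most like Thbs1 and the most abundant gene of each marker list. Srgn, Adam17, Col1a1, Col1a2, Dcn, Postn and the markers at 0 were named after their values were seen. Members and lists were chosen with earlier results of these data known. Alternatives were other filters, size factors, DESeq2, a robust fit, 12 libraries, replicate number as a block and leaving out each library. Depth as a covariate and leaving out 3 CD8+ T cell libraries were added after the data were seen.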

Additional observations from a re-analysis of the deposited data

Results flagged for a closer look

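In 44 groups of 6 libraries, 1 for each gene and group with a mean above 1 normalized molecule, the highest and lowest values were looked at, and 11 lay far from the rest by a test of the gap over the range, which chance alone gives in about 1 in 20 groups. That rate is for normally spread values and was not checked for groups with most libraries at or near 0. Of the 11, 4 were in replicate 1 of muMt–/– CD8+ T cells. Thbs1 was at 18.03 normalized molecules in WT CD8+ T cell replicate 6, with the nearest library at 4.57 and a median of 0. Thbs1 was at 52.6 in muMt–/– CD8+ T cell replicate 1, with the nearest at 10.6 and a median of 5.11. Fn1 was at 27.4 in WT CD8+ T cell replicate 5, with the nearest at 9.01 and a median of 2.35. Spp1 was at 29.3 in muMt–/– CD8+ T cell replicate 1, with the nearest at 6.86 and a median of 0.409. Spp1 was at 18.4 in replicate 1 of CD8+ T cells of the GABA group, with the nearest at 4.96 and a median of 3.41. Vegfa was at 90.6 in muMt–/– TAM replicate 4, with the nearest at 58.0 and a median of 52.2. Vegfa was at 18.2 in muMt–/– CD8+ T cell replicate 1, with the nearest at 6.86 and a median of 2.47. Mmp12 was at 8.003 in WT CD8+ T cell replicate 5, with the nearest at 0 and a median of 0. Mmp12 was at 17.97 in replicate 3 of CD8+ T cells of the GABA group, with the nearest at 6.36 and a median of 3.13. Plau was at 58.4 in muMt–/– TAM replicate 1, with the nearest at 21.2 and a median of 14.8. Plaur was at 6.07 in muMt–/– CD8+ T cell replicate 1, with the nearest at 0.818 and a median of 0.381.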

How the results depend on the processing

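Within TAMs the log2 fold changes of the 8 genes moved by less than the SD between libraries of a group. This held for all 216 values under other settings and all 288 with a library left out. A change of sign was counted only for genes called in the main fit, so it could not be counted in the comparisons with the GABA group. With a library left out Plau, Plaur and Mmp14 did change sign in a comparison. The 24 levels of CD8+ T cells as a percent of TAMs stayed within their spread with TMM-scaled counts in place of size factors. Between cell types 191 log2 fold changes kept their side of the threshold under other settings, 18 were weaker and 7 stronger, and 254, 31 and 3 with a library left out, counts that include Plau and, in WT and muMt–/– tumours, Thbs1, from which nothing is read. In CD8+ T cells 171 kept direction, 14 reversed and 3 were stronger, and 233 and 19 reversed with a library left out. Counts are genes called, for TAMs unless said otherwise. With filterByExpr muMt–/– minus WT gave 295 and GABA minus WT 2, and TAMs minus CD8+ T cells 1166 in WT and 1209 in the GABA group. With no filter muMt–/– minus WT, GABA minus muMt–/– and GABA minus WT gave 343, 51 and 63 genes in TAMs, with 4 of the 8 genes in the first and 1 in the second, and 13, 4 and 5 list genes. Having no filter in CD8+ T cells gave 72, 11 and 64 genes, with 2 of the 8 in the first and 1 in the third, and 7, 3 and 5 list genes. Fits of 12 libraries gave 323 genes and 8 list genes for muMt–/– minus WT TAMs and 4 genes for GABA minus WT TAMs, and 1 gene each for muMt–/– minus WT and GABA minus WT in CD8+ T cells. With depth as a covariate muMt–/– minus WT TAMs gave 11 genes, 0 of the 8 and 0 list genes, and GABA minus muMt–/– TAMs 5 genes. In CD8+ T cells GABA minus muMt–/– then gave 6 genes and 1 list gene. With depth in the fit of CD8+ T cells Plaur was at -0.18 for muMt–/– minus WT. For GABA minus WT CD8+ T cells Thbs1 was then at -1.27, Spp1 at -0.51, Vegfa at -0.44 and Mmp14 at -0.39. Library totals gave 7 genes for GABA minus muMt–/– TAMs and 1 for GABA minus WT CD8+ T cells, and DESeq2 size factors 1 for the last. DESeq2 gave 62 genes with 2 of the 8 for GABA minus muMt–/– TAMs, 13 for GABA minus WT TAMs and 1 for GABA minus WT CD8+ T cells, and 4 of the 8 between cell types in muMt–/– and 4 in the GABA group, Plau among them in each. With replicate number as a block, GABA minus muMt–/– TAMs gave 4 genes with 1 of the 8, CD8+ T cells 2 for GABA minus muMt–/– and 1 for GABA minus WT, and Spp1 for GABA minus muMt–/– CD8+ T cells was at 0.0641. Replicate numbers were not known to match mice, and 54 same-number pairs correlated between -0.18 and 0.28. Robust fits gave 4 genes for GABA minus muMt–/– TAMs, and 5 of the 8, Plau and Thbs1 among them, and 4, Plau among them, between cell types in muMt–/– and the GABA group. Without the 3 CD8+ T cell libraries GABA minus muMt–/– gave 6 genes and 1 list gene and GABA minus WT 1 gene. Thbs1 was then at -0.15 and Spp1 at -0.73 for muMt–/– minus WT, Spp1 at 0.0889, Vegfa at 0.0621 and Mmp12 at -0.23 for GABA minus muMt–/–, and Thbs1 at -0.60, Spp1 at -0.64 and Mmp12 at -0.0825 for GABA minus WT. With each library left out muMt–/– minus WT TAMs gave 67 to 231 genes and 0 to 5 list genes, GABA minus muMt–/– TAMs 2 to 36 genes, 0 to 1 of the 8 and 0 to 1 list gene, and GABA minus WT TAMs 2 to 9 genes. The same in CD8+ T cells gave 0 to 13 genes and 0 to 2 list genes for muMt–/– minus WT, 0 to 1 gene for GABA minus muMt–/– and 0 to 1 gene for GABA minus WT. For muMt–/– minus WT CD8+ T cells Fn1 ran from 1.90 to 3.65, Thbs1 ran from -0.0739 to 3.28, Spp1 from -0.67 to 1.92 and Plaur from -1.03 to 0.88, each end with 2 Plaur molecules left in a group. For GABA minus muMt–/– Thbs1 ran from -1.95 to 0.22, Fn1 from -1.25 to 0.29, Spp1 from -1.14 to 1.63, Vegfa from -1.02 to 0.25 and Mmp12 from -0.45 to 1.63. For GABA minus WT Fn1 ran from 1.32 to 3.26, Thbs1 ran from -0.79 to 2.20, Spp1 from -0.15 to 1.81 and Vegfa from -0.10 to 0.95. Between cell types in the GABA group 4 to 7 of the 8 genes passed, Plau always among them. For all of these the cause was not tested. Most of the 8 genes were at few molecules in CD8+ T cell libraries, and low depth and low expression were not told apart.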
